A study of Mus musculus with 64 samples.

Results

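En2, Foxf2 and Sfi1 are 3 mouse genes grouped here as known hotspot loci of transposon screens, that is, loci where insertions recur. The group was selected on insertion values of these same data, and its members were then found as the lines of the insertion table whose gene column names one of them. They hold 253 of 385883 lines, with 81 lines at En2, 172 at Sfi1 and 0 at Foxf2, out of 17126 gene symbols named in the table. Because their insertion numbers chose En2 and Sfi1, the numbers, positions and strands below are a description with no test. Tests were kept to tumours against tails and to relations across samples. Foxf2 was not hit in these samples, so insertions at these loci mean here insertions at En2 and Sfi1.

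Transposon insertions were mapped in genomic DNA of diffuse large B cell lymphomas and, as control tissue, of tails. A transposase, PiggyBac (PB) or Sleeping Beauty (SB), was expressed from the Rosa26 locus in every tissue and moved transposon copies out of an array at a donor locus of the ITP lines. Tumours numbered 30 for PB and 11 for SB, and tails 12 and 11. Junctions were amplified by splinkerette PCR from both transposon ends and read by paired-end sequencing (QiSeq), and each line of the deposited table gives a position on the mm10 (GRCm38) genome, a strand and a raw count of reads, never under 2. The SB mice descended from crosses of Rosa26SB/+;Blm m3/m3 mice with ITP1-C or ITP2-M transposon mice that were also Blm m3/m3. The labels do not say which line a mouse carried, and the crosses gave both double and triple transgenic mice. The PB mice carried Rosa26PB and ITP transposons and came from an earlier cohort, whose Blm genotype is not given in the sources used here. The genetic background of SB and PB mice alike was mixed (C57BL/6 × 129Sv × FVB). Tumours came from spleen, lymph nodes, mesenteric and cervical masses, small intestine and thymus, and no treatment, age or sex is given.

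A sample had between 968 and 11932 lines in PB tumours (median 4979) and between 2487 and 8868 in PB tails (median 4371). The range was 1021 to 11130 in SB tumours (median 5177) and 4627 to 12459 in SB tails (median 7780). With reads shared between neighbouring lines counted once, the median sample held 154458 reads in PB tumours, 150622 in PB tails, 149516 in SB tumours and 191043 in SB tails. Reads of a PCR that lacks molecular identifiers do not stand for independent molecules. Chromosome 14, taken as the donor chromosome because it has the most insertions, held 23.6 ± 3.55% of the lines of an SB tumour (SD, n = 11) and 40.2 ± 3.48% of those of an SB tail (SD, n = 11), with no overlap between these groups. For PB the shares were 9.97 ± 3.98% in tumours (SD, n = 30) and 13.3 ± 2.18% in tails (SD, n = 12), with overlap.

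SB inserts at the dinucleotide TA and PB at TTAA, so the motif sites of a gene bound where an insertion can fall. En2 (engrailed 2) encodes a homeodomain transcription factor of the developing midbrain and hindbrain, and the splice acceptor in front of its second exon is widely used in gene-trap cassettes, transposons included. Foxf2 encodes a forkhead transcription factor of mesenchymal cells, and Sfi1 a centrin-binding protein of the centrosome. Recurrent insertion at a locus can come from selection, from genomic sequence carried in the transposon or from extra copies of the locus in the genome. None of these causes was tested here, and the sequence of the ITP transposons was not analysed here.

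En2 was hit in every SB sample. The 41 lines in SB tumours fell on 11 of 11 tumours, with between 2 and 5 lines each (median 4), and the 37 lines in SB tails on 11 of 11 tails, with between 2 and 4 (median 3). Counted as distinct positions, a tumour held 3.09 ± 0.831 (SD, n = 11) and a tail 2.64 ± 0.505 (SD, n = 11), and the ranges, 2 to 4 and 2 to 3, overlapped. With positions within 10 bp counted once the means were 2.64 and 2.55. In PB samples the gene had 2 lines in 30 tumours and 1 line in 12 tails, with between 2 and 5 reads each. The order of the levels was therefore SB tumours and SB tails, which lay within their spread, and then PB tumours and PB tails, which also lay within theirs.

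**Figure D1:**
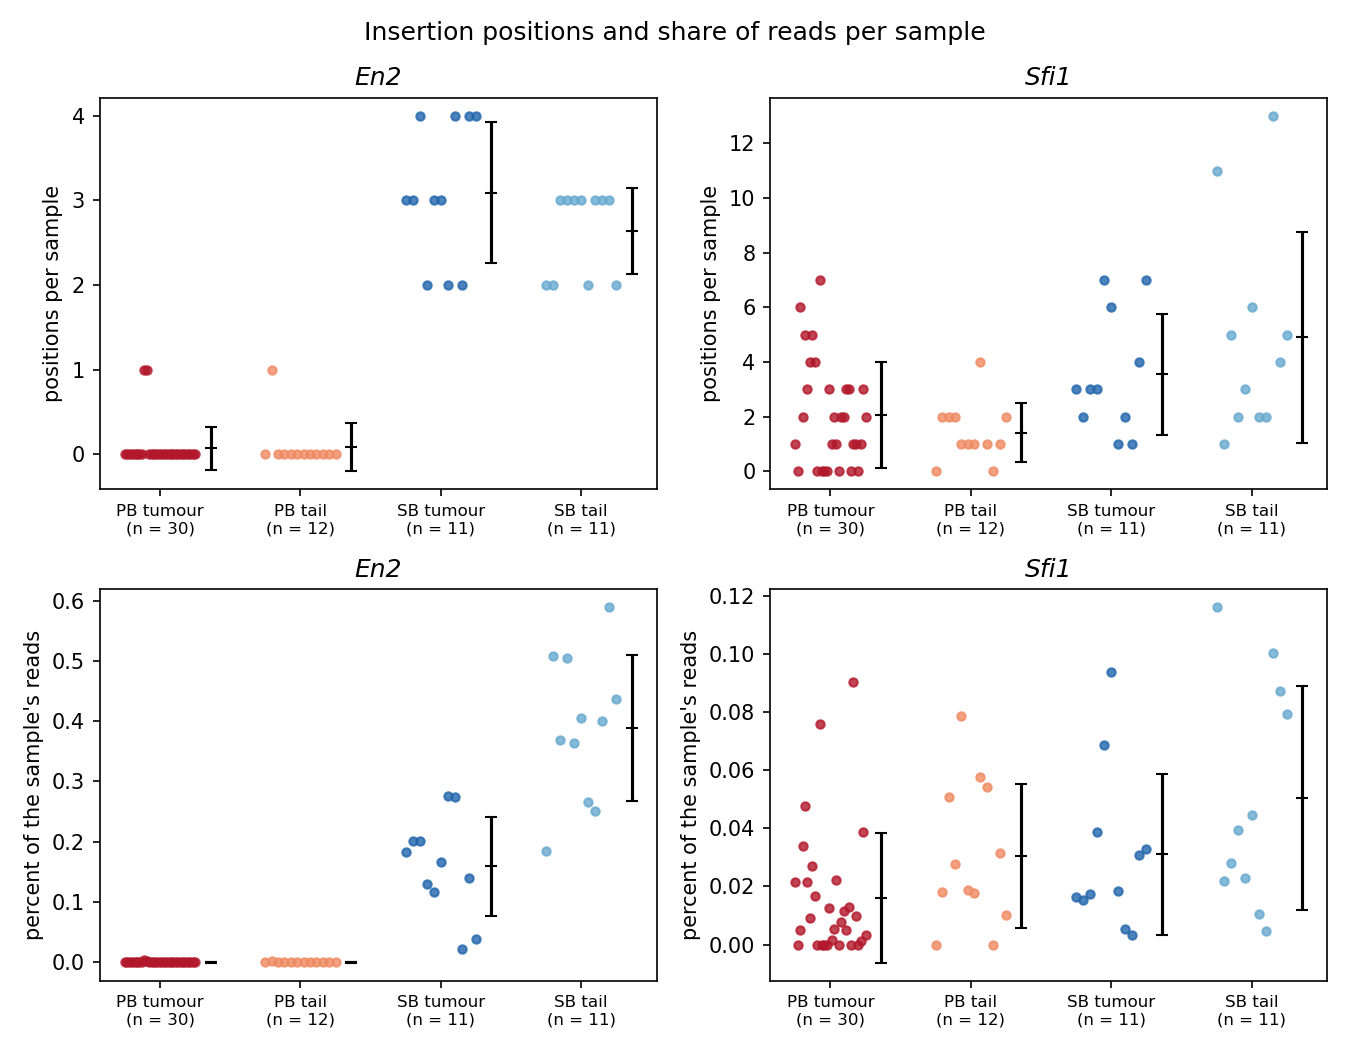
Distinct positions per sample (upper panels) and percent of the sample's reads (lower panels) at En2 and Sfi1 in the 4 groups. Each point is a sample, and the black bar gives the mean and SD of the group. Every SB sample has 2 to 4 positions at En2, and the En2 share of reads is between 0.0224% and 0.276% in SB tumours and between 0.185% and 0.589% in SB tails.

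The SB lines at En2 did not spread over the gene. All 78 lay between bases 28169851 and 28170235 of chromosome 5, a stretch of 385 bp that makes up 5.93% of the gene (chr5:28165696-28172190, plus strand). Of 229 TA sites in the gene 14 lie in this stretch, and 9 of these were hit. The stretch crosses the border of intron 1 and exon 2, since exon 2 starts at base 28170119 and its coding part ends at 28170435. Its first position lies 268 bases before the exon and its last 116 bases inside it.

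A first cluster lay within 24 bp of the intron, from base 28169851 to 28169874, and was hit in 21 of 22 SB samples with 35 lines. The second lay in the coding part of exon 2, from base 28170144 to 28170235, and was hit in 20 of 22 samples with 37 lines. Both clusters were hit in 19 samples, 10 tumours and 9 tails. A further 6 lines lay between the clusters, in 5 tumours and 0 tails, with at most 96 reads.

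The most shared position was the TA at base 28170235, present in 10 of 11 SB tumours and 10 of 11 SB tails. Inside the intron cluster lines were listed at 28169851 in 1 tumour and 5 tails, at 28169861 in 2 tumours and 5 tails, and at 28169870 and 28169874 in 7 tumours and 3 tails each. These are not all separate hits, since in 5 tumours and 1 tail 2 of these sites carry the same read number. Of the 7 tumours at 28169870 this holds for 5, and of the 7 at 28169874 for 3, so the sites were not compared between tissues. A last position, 28170144, has no TA within 5 bp and still carried 5 lines from 4 samples, 1 tumour and 3 tails, with up to 738 reads.

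The genome around these positions is shown because the stretch holds the splice acceptor and all SB lines of the gene. The sequences are the plus strand of GRCm38, capitals mark each TA that was hit, and the first lies wholly in intron 1 (chr5:28169831-28170000) while the second covers the end of the intron and the start of exon 2 (chr5:28170049-28170260).

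En2 intron part: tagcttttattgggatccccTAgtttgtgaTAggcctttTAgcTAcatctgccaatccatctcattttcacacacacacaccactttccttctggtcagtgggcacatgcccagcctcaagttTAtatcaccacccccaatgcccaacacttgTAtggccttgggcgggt
En2 intron-exon border: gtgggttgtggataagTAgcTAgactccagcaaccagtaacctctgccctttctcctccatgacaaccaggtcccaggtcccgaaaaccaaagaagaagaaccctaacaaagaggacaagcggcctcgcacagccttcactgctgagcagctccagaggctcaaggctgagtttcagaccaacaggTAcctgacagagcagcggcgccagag

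**Figure D2:**
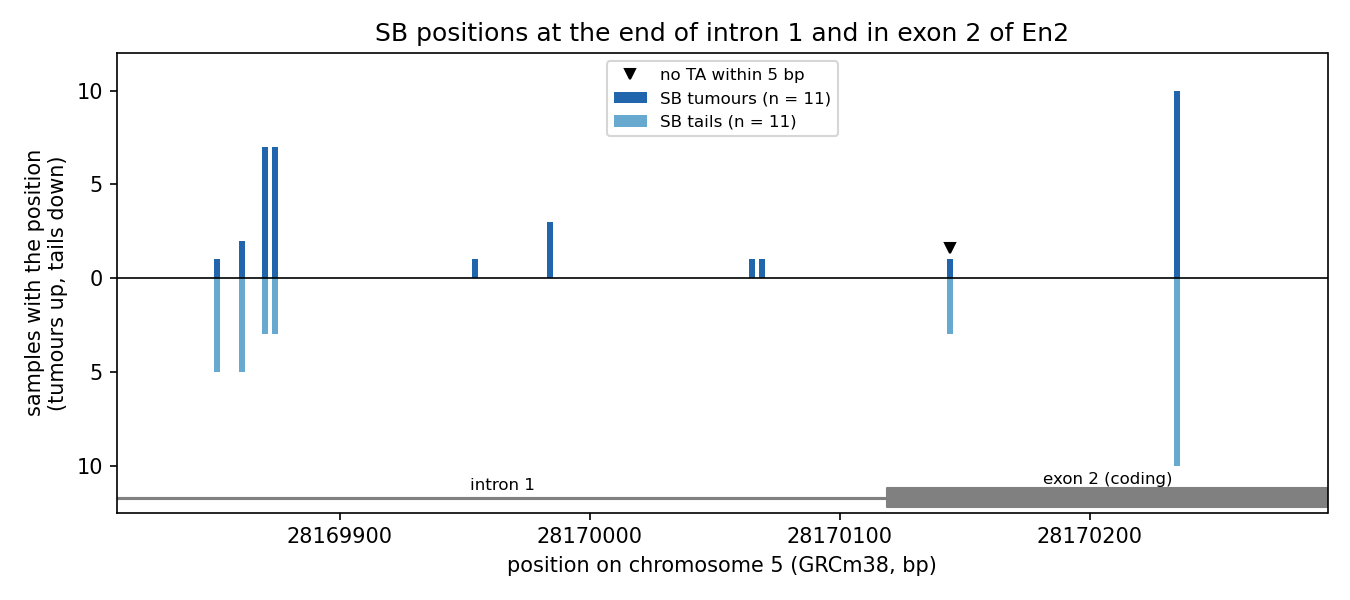
Number of SB tumours (upward bars) and SB tails (downward bars) with an insertion at each position of En2, along chromosome 5 in bp. The grey line is intron 1, the grey box the coding part of exon 2, and the triangle marks the position without a TA. The TA at 28170235 is hit in 10 tumours and 10 tails.

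The bases next to the hit sites were counted at the third base on each side of the TA, where A before and T after are frequent among SB insertions. Over the 93833 SB positions of the chromosomes kept, 74.5% had that A and 74.2% that T. At En2 the A was present at 4 of 9 positions and the T at 6 of 9. At Sfi1 the shares were 72.4% and 65.5% of 87 positions. With 9 positions at En2, no test was made.

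Strand and reads were also unusual at En2. In a sample, 15 of 63 En2 positions (23.8%) were listed on both strands, whereas over all SB lines this held for 94 of 148309 positions (0.0634%). A second line within 10 bp in the same sample accompanied 42 of 78 En2 lines (53.8%), against 0.425% of all SB lines. All 21 such neighbouring pairs at En2 carried identical read numbers, as did all 315 pairs over the SB table and all 230 over the PB table. Such lines were taken as the same reads listed again, and below their reads are counted once in sums and ranks of reads, while positions and rates count each listed position, although the table holds no single reads and the rule of the insertion caller is not given in the sources used here. Plus-strand lines made up 56.1% of En2 lines in SB tumours and 59.5% in SB tails, against 50.7% and 51.0% of all lines of these groups. Lines with no TA within 5 bp were 6.41% of SB lines at En2 and 0.0869% of all SB lines.

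Coverage at En2 was high. In SB tails the best covered En2 insertion had between 172 and 2010 reads (median 436) and ranked between 1 and 16 among all insertions of its sample (median rank 5). It had 1164 to 2010 reads in tails with separated names and 172 to 738 in those with joined names, the form that all SB tumours have. These are raw counts, not scaled to the reads of a sample. As a share of reads, En2 took 0.251% to 0.589% in tails with separated names and 0.185% to 0.509% in those with joined names, with overlap. In SB tumours the best covered En2 insertion had between 11 and 517 reads (median 168), with ranks between 20 and 351 (median 53). The median insertion had 13 reads in SB tumours and 20 in SB tails. In PB samples the En2 lines ranked no better than 4148.

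Neighbouring genes and relatives of En2 were hit far less by SB. For rates, insertions on a motif between the RefSeq borders of a gene were counted, whatever the gene column says. Per 1000 TA sites En2 had 144 insertions in SB tumours and 114 in SB tails, against 0.306 and 0.355 over all TA sites of the chromosomes kept. Within the hit stretch alone the values were 2357 and 1857. The 3 protein-coding genes before En2, namely Insig1, Htr5a and Paxip1, had 0 SB insertions in tumours, and of these only Htr5a had 1 in tails. After En2, Cnpy1 had 1 insertion in SB tumours and 2 in SB tails, Rbm33 had 4 and 9, and Shh had 0 in both. En1, the other engrailed gene, had 0 lines in any group. It holds 194 TA sites, so few that 0 SB insertions are usual at the rates over all sites. For PB, En2 had 1 insertion on a TTAA among 21 TTAA sites, at base 28168116 of intron 1. Its other 2 PB lines (28170153 and 28170154, in exon 2) have no TTAA within 5 bp. Both lie inside the stretch that holds all SB lines of the gene, close to 28170144, the SB position that has no TA within 5 bp.

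The hit sequence was single-copy in the reference. Each of 47 tiles of 100 bp of En2 outside repeats matched the primary assembly 1 time at 95% identity or more, and so did the 100 bp around each of the 10 SB positions. Copies absent from the assembly, the transposon's own sequence included, were not searched. Whether the reads at En2 came from junctions in the gene or from En2 sequence elsewhere was not tested.

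Tumours and tails were compared by insertions per gene, with the number of insertions of a sample as library size. At En2 an SB tumour had between 2.28 and 13.2 positions per 5000 insertions (median 4.12) and an SB tail between 1.52 and 5.91 (median 2.78). The groups overlapped, with the highest value in a single tumour of few insertions. The log2 fold change of tumours over tails was 0.60 with an SE of 0.46 (edgeR, adjusted p = 0.737), and 0.41 with positions within 10 bp counted once (adjusted p = 0.856). Of the 2 members tested in SB, 0 passed an adjusted p under 0.05 in edgeR and 0 had an unadjusted p under 0.05, and DESeq2 also called 0, while edgeR called 0.801% of all 1124 genes tested. Of all these genes, 101 had an unadjusted p under 0.05 in edgeR, and DESeq2 called 2. En2 was below the minimum of 10 insertions in PB, and Foxf2 in both systems.

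The share of reads did separate the tissues. En2 took between 0.0224% and 0.276% of the reads of an SB tumour (median 0.166%) and between 0.185% and 0.589% of the reads of an SB tail (median 0.401%). Of 11 tumours 7 lay under the lowest tail, and 8 of 11 tails lay above the highest tumour. The means were 0.159 ± 0.0823% (SD, n = 11) and 0.389 ± 0.122% (SD, n = 11), lower in tumours (two-sided permutation test, p = 5.0e-05, adjusted p = 1.5e-04 over 3 tests). Within samples with joined names, 11 tumours and 7 tails, the mean difference was -0.212 percentage points (exact permutation test, p = 4.7e-04). All SB tumours have joined names, so no value could be had for separated names. Within samples whose names share their letters and first number, joined and separated forms pooled, it was -0.215 in 9 tumours and 9 tails under 4 numbers (exact permutation test, p = 0.00147, adjusted p = 0.00441). With the 2 forms kept apart, which leaves 6 tails, all with joined names, it was -0.184 (exact permutation test, p = 0.00952, adjusted p = 0.0286). The share of lines on the donor chromosome also differed between these groups, as given above. With reads of the donor and sex chromosomes left out of the total, the means were 0.214% in tumours and 0.715% in tails. This difference of -0.501 percentage points (two-sided permutation test, p = 1.0e-05, adjusted p = 3.0e-05) refers to a smaller total, so its size does not compare with those above. Any other part of the donor chromosome in the result was not tested.

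Foxf2 (chr13:31625816-31631406, plus strand) had 0 lines in the gene column and 0 lines between its annotated borders, in all 64 samples. Its 5591 bp hold 191 TA and 10 TTAA sites. Over all sites of the chromosomes kept, the rates per 1000 TA sites were 0.306 in SB tumours and 0.355 in SB tails. Per 1000 TTAA sites they were 11.9 in PB tumours and 3.65 in PB tails. At such rates a gene with so few sites would mostly have no insertion, so the 0 does not set Foxf2 apart. Within 50000 bases on either side lay 19 lines of 17 samples: 10 in PB tumours, 4 in PB tails, 2 in SB tumours and 3 in SB tails. The nearest was a PB tumour insertion with 18 reads at base 31632143, 737 bases after the end of the gene. The table lists only lines of 2 or more reads, so rarer insertions would not be seen.

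Among the 3 protein-coding genes on each side of Foxf2, the short forkhead genes Foxq1 and Foxc1 had 0 insertions in all groups, and so did Hus1b. The long genes were hit: Exoc2 had 35 insertions in PB tumours, 4 in PB tails, 6 in SB tumours and 5 in SB tails. Gmds had 52 in PB tumours, 21 in PB tails, 11 in SB tumours and 16 in SB tails. Mylk4 had 7 in PB tumours, 2 in PB tails, 0 in SB tumours and 5 in SB tails. Foxf1, the closest relative of Foxf2, had 0 lines in any group. Foxq1, Foxc1, Hus1b and Foxf1 hold few motif sites too, so their zeros do not set them apart either. All 32 tiles of Foxf2 outside repeats matched the assembly 1 time.

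Sfi1 was hit by both systems and throughout its length. It had 39 lines in SB tumours and 54 in SB tails, each on 11 of 11 samples, and 62 lines on 22 of 30 PB tumours and 17 lines on 10 of 12 PB tails. A sample held between 1 and 7 lines in SB tumours (median 3), between 1 and 13 in SB tails (median 4), between 0 and 7 in PB tumours (median 2) and between 0 and 4 in PB tails (median 1). The means were 4.91 ± 3.86 (SD, n = 11) in SB tails, 3.55 ± 2.21 (SD, n = 11) in SB tumours, 2.07 ± 1.95 (SD, n = 30) in PB tumours and 1.42 ± 1.08 (SD, n = 12) in PB tails. In this order each neighbouring pair differed by less than its SD. With at least 10 reads the means were 3.55 in SB tails, 1.82 in SB tumours, 0.767 in PB tumours and 1.17 in PB tails. The order of the PB groups was thus turned.

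Scaled to 5000 insertions of the sample, Sfi1 had 5.05 ± 2.79 positions in SB tails, 4.57 ± 1.49 in SB tumours, 1.86 ± 1.66 in PB tumours and 1.75 ± 1.03 in PB tails (SD, n as before). The SB and PB ranges overlapped. Between the RefSeq borders lay 42 insertions on a motif in SB tumours, 58 in SB tails, 69 in PB tumours and 17 in PB tails. Per 1000 motif sites, TA for SB and TTAA for PB, this made 11.4 insertions in SB tumours against 0.306 over all sites, and 15.7 in SB tails against 0.355. For PB the values were 189 in tumours against 11.9, and 46.4 in tails against 3.65. No test was made, since these numbers chose the gene.

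**Figure D3:**
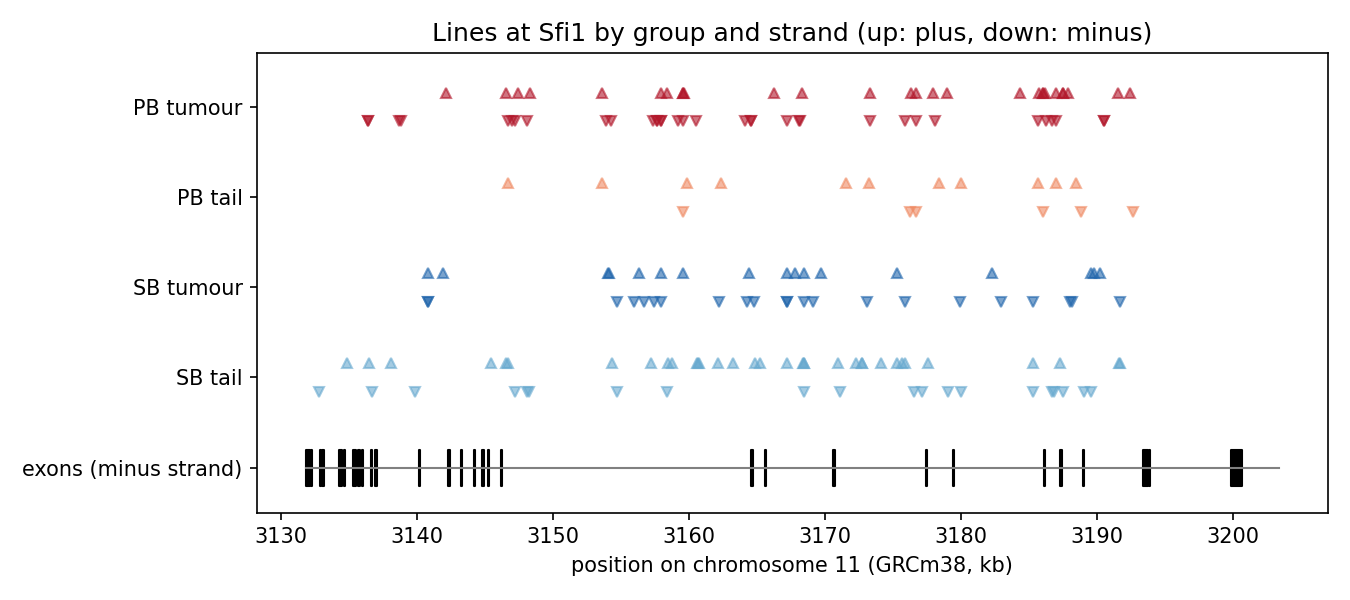
Lines at Sfi1 by group along chromosome 11 in kb, with upward triangles for the plus strand and downward ones for the minus strand. Black boxes are the 29 exons of the first curated transcript, on the minus strand. Lines of all 4 groups lie over most of the gene, and none named Sfi1 lies after base 3192630.

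The insertions of Sfi1 were dispersed. In SB samples 93 lines fell on 87 positions, of which 4 were shared by more than 1 sample, and in PB samples 79 lines fell on 60 positions, of which 14 were shared. The most shared position of each system was in 4 samples, at 3167203 for SB (3 tumours and 1 tail) and at 3159592 for PB (3 tumours and 1 tail). Only 2.30% of the SB positions and 1.67% of the PB positions lay in exons of that transcript. In 4 equal stretches between the RefSeq borders, from low to high coordinate, SB had 16, 31, 32 and 21 lines and PB 13, 25, 19 and 31, counting all 188 lines there, 16 of them named Drg1 in the gene column.

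Plus-strand lines at Sfi1 made up 43.6% in SB tumours, 63.0% in SB tails, 45.2% in PB tumours and 64.7% in PB tails. Over all lines of these groups the shares were 50.7%, 51.0%, 50.1% and 49.3%. Both tail groups lay above and both tumour groups below them, and no test was made. No Sfi1 position was listed on both strands in a sample, and no Sfi1 line had another within 10 bp. Every SB line lay on a TA, and 77 of 79 PB lines lay on a TTAA. The median Sfi1 insertion had 10 reads in SB tumours, 22 in SB tails, 7 in PB tumours and 22 in PB tails. The medians of all insertions of these groups were near, at 13, 20, 6 and 21. The 2 PB lines without a TTAA make up 2.53% of the PB lines at Sfi1, against 0.906% of all PB lines.

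The positions of Sfi1 that most samples share are shown to give the sequence each transposase met. Sequences are the plus strand of GRCm38, and capitals mark the hit motif. They lie at chr11:3157972-3157993, chr11:3167193-3167214, chr11:3175312-3175333 and chr11:3185250-3185271 for SB, and at chr11:3157938-3157961, chr11:3159582-3159605, chr11:3176668-3176691 and chr11:3185989-3186012 for PB, all in introns.

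Sfi1 SB 3157982: ttctacacaaTAtatatacttc
Sfi1 SB 3167203: aaacagtaccTAaatacacttt
Sfi1 SB 3175322: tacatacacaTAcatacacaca
Sfi1 SB 3185260: taaggctataTAtatatgaggg
Sfi1 PB 3157948: tgacaggaagTTAAggcctccagt
Sfi1 PB 3159592: ggacattttcTTAAtaaagactca
Sfi1 PB 3176678: ctgcagctcaTTAAccatatgaat
Sfi1 PB 3185999: gagaaattttTTAAatagaaaaaa

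Much of the Sfi1 sequence that was searched has further matches in the reference. From 300 tiles of 100 bp spaced over the gene, 124 lay outside repeats and were searched, and the rest of the gene was not. Of these 124, 92 (74.2%) matched the primary assembly more than 1 time at 95% identity or more, with a median of 2 matches and a highest of 16. A match outside the gene was found for 91 tiles, and all 91 matched 1 and the same sequence that has no place on a chromosome, while 13 tiles matched chromosome 5 and 1 matched chromosome 10. Around the hit positions that were searched, 36 of 50 SB positions and 27 of 38 PB positions had a further match. The other 37 SB and 22 PB positions were over 50% repeat-masked and were not searched. The table holds no line on sequences without a chromosome place, so insertions in such a copy cannot be told apart from insertions in the gene on chromosome 11. The number of copies in the mice was not measured, and its part in the insertion numbers was not tested.

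Genes beside Sfi1 had lower rates than Sfi1, not all of them down to the rate over all sites. Sfi1 is the first protein-coding gene of chromosome 11 in the annotation, so it has neighbours on one side only. Gm51877, which lies inside its end, had 0 insertions, and Eif4enif1 had 2 in SB tumours, 0 in SB tails, 11 in PB tumours and 1 in PB tails. This was 41.4 per 1000 TTAA sites in PB tumours against 11.9 over all sites, 3.76 against 3.65 in PB tails, and 0.744 per 1000 TA sites against 0.306 in SB tumours. Within its annotated borders Drg1 had 2 in PB tumours and 0 elsewhere. Eif4enif1 had further matches for 1 of 126 tiles and Drg1 for 3 of 62. The gene column ends Sfi1 earlier than the annotation: of 188 lines between the RefSeq borders (chr11:3131850-3203347, minus strand), 172 were named Sfi1 and 16, from base 3193866 to 3199956, were named Drg1. The last line inside the rule and the first outside it lie 1236 bases apart.

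Pisd and its pseudogenes were also counted. Pisd-ps1, whose end overlaps the low end of Sfi1 on chromosome 11, had 3 insertions in PB tumours and 1 in an SB tail within its borders, or 150 per 1000 of its 20 TTAA sites in PB tumours, and 54 of its 58 tiles had further matches. Pisd-ps2 on chromosome 17 had 4 insertions in PB tumours and 2 in SB tumours, with further matches for 50 of 75 tiles. Pisd itself on chromosome 5 had 2 insertions in PB tumours and 2 in PB tails. Pisd-ps3 had 0 lines in the gene column.

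No difference between tumours and tails was called at Sfi1. The log2 fold change was -0.20 with an SE of 0.41 for SB (edgeR, adjusted p = 0.936) and 0.10 with an SE of 0.43 for PB (edgeR, adjusted p = 0.924). In PB 1 member was tested and 0 passed in edgeR, 0 at an unadjusted p under 0.05, and DESeq2 also called 0, while 4.45% of all 3305 genes passed in edgeR. Of all these genes, 651 had an unadjusted p under 0.05 in edgeR, and DESeq2 called 86. The sign of both values changed under some settings. The gene took between 0.0032% and 0.0939% of the reads of an SB tumour (median 0.0186%) and between 0.00482% and 0.116% of those of an SB tail (median 0.0393%), and these ranges overlapped. For PB the shares ran from 0 to 0.0903% in tumours (median 0.00855%) and from 0 to 0.0786% in tails (median 0.0231%), again with overlap. The mean was lower in tumours in both systems, 0.0310% against 0.0504% in SB and 0.0160% against 0.0304% in PB. Neither difference in means passed (two-sided permutation tests, p = 0.188 for SB and p = 0.0716 for PB, adjusted p = 0.188 and 0.107 over 3 tests). With reads of the donor and sex chromosomes left out of the total, the same test gave p = 0.0544 for SB and p = 0.0557 for PB (adjusted p = 0.0557 for both). For PB, exact permutation tests gave p = 0.0503 within joined names and p = 0.617 within separated names, and for SB p = 0.546 within joined names. The tumour-tail difference of SB minus that of PB was -0.00499 percentage points of reads (permutation test, p = 0.765) and -0.593 positions per 5000 insertions (p = 0.654). System labels were permuted within each tissue, which takes both systems to have equal levels. Mean levels of Sfi1 were higher in SB than in PB, so these p-values do not measure the difference of differences alone. No conclusion is drawn from them.

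Insertions at Sfi1 rose with the number of other insertions in a sample, and the same r for other genes is given below. In SB tumours Pearson's r was 0.862 (permutation test, p = 1.8e-04, adjusted p = 0.00108) and Spearman's rho 0.832 (p = 0.00231, adjusted p = 0.00924). In PB tumours r was 0.667 (permutation test, p = 9.0e-05, adjusted p = 0.00108) and rho 0.632 (p = 1.7e-04, adjusted p = 0.00204). In SB tails r was 0.773 (permutation test, p = 0.00652, adjusted p = 0.0196) and rho 0.589 (p = 0.0604, adjusted p = 0.103). In PB tails r was 0.683 (permutation test, p = 0.0112, adjusted p = 0.0268) and rho 0.618 (p = 0.0348, adjusted p = 0.103). Values were adjusted over 12 relations. Without the 2 samples farthest from the median number of other insertions, r was 0.797 in SB tumours and 0.522 in PB tumours (adjusted p = 0.0426 for both). It was then 0.335 in 9 SB tails and 0.487 in 10 PB tails and no longer passed (permutation tests, adjusted p = 0.528 and 0.305). Whether the relation in tails rests on the samples left out was not tested. In SB tumours rho was then 0.698 and no longer passed (adjusted p = 0.166). A minimum of 10 reads also ended the calls of r in both tumour groups (r = 0.636 in SB and 0.513 in PB, adjusted p = 0.0520 for both), as well as those of rho (0.647 and 0.275, adjusted p = 0.145 and 0.312). In SB tails r was higher with this minimum, at 0.900, and passed (adjusted p = 0.0286), while rho did not (0.435, adjusted p = 0.312). Within joined names r was 0.697 in 22 PB tumours and 0.717 in 7 SB tails, and within separated names 0.370 in 8 PB tumours and 0.801 in 7 PB tails.

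The same r was taken over the other genes with at least 30 insertions in a group. The median was 0.642 over 33 genes in SB tumours, 0.505 over 39 in SB tails, 0.500 over 521 in PB tumours and 0.629 over 26 in PB tails. An r as high as that of Sfi1 was found for 3, 4, 69 and 10 of these genes. The tests against 0 above thus do not set Sfi1 apart from other genes.

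With insertions on the donor chromosome as the measure, Sfi1 gave r = 0.860 in SB tumours (permutation test, p = 3.8e-04, adjusted p = 0.00152) and rho = 0.884 (p = 5.6e-04, adjusted p = 0.00336), and without the 2 farthest tumours r = 0.794 (adjusted p = 0.0426), while rho no longer passed (0.795, adjusted p = 0.0746). With a minimum of 10 reads neither passed (r = 0.700, adjusted p = 0.0520; rho = 0.465, adjusted p = 0.312). The relation did not pass in SB tails (r = 0.479, rho = 0.299), PB tumours (r = 0.192, rho = 0.148) or PB tails (r = 0.602, rho = 0.578), with adjusted p = 0.160, 0.372 and 0.0840 for r and 0.494, 0.522 and 0.103 for rho by permutation test.

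En2 positions gave no call with all insertions, but 1 with a read minimum. Against other insertions r was 0.578 in SB tumours (permutation test, p = 0.0593, adjusted p = 0.102; rho = 0.520, p = 0.103, adjusted p = 0.155) and -0.0819 in SB tails (p = 0.777, adjusted p = 0.792; rho = -0.239, p = 0.527, adjusted p = 0.575). Against donor chromosome insertions r was 0.508 in SB tumours (permutation test, p = 0.109, adjusted p = 0.160; rho = 0.618, p = 0.0497, adjusted p = 0.103) and 0.0971 in SB tails (p = 0.792, adjusted p = 0.792; rho = -0.120, p = 0.790, adjusted p = 0.790). With at least 10 reads, rho against donor chromosome insertions in SB tumours was 0.821 and passed (adjusted p = 0.0359), while r was 0.678 (adjusted p = 0.0520), and r against other insertions was 0.719 (adjusted p = 0.0520). Of the other genes with at least 30 insertions, 18 of 33 had an r against other insertions as high as that of En2 in SB tumours, and 39 of 39 in SB tails. En2 had 2 to 4 positions in every SB sample, and whether this range limits r was not tested.

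The genes most like each member were sought over the 64 samples by Pearson's r of log2(insertions per 5000 + 1), among 1299 genes with at least 30 insertions. These samples share 4 groups and their depth, so the values are a description. For En2 the leading genes were Gm10801 (r = 0.863), Malrd1 (r = 0.802) and Gm10800 (r = 0.796). For Sfi1 they were Lsamp (r = 0.625), En2 (r = 0.553) and Mir99ahg (r = 0.528), lower values than any of the En2 list.

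En2 also led the genes of SB samples by how many samples shared 1 exact position, with 20 of 22. It was followed by Gm10800 with 13, Chl1 with 10, Gm10801 with 8 and Apc with 5. In PB samples the leading genes were Rasa2 with 19 of 42, Tnfrsf14 with 11, Asxl2 and Pcdh9 with 10 each and AC159323.1 with 7, the last pair on the donor chromosome. Among the positions searched for copies, those of En2, Rasa2, Tnfrsf14, Asxl2, Pcdh9 and AC159323.1 had 1 match, while that of Gm10801 had 5. Sfi1, with at most 4 samples at a position, was not among these genes. None of those tested in its system passed the comparison of tumours with tails in edgeR, the lowest adjusted p being 0.0502 for Asxl2 in PB.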

How the data were processed

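Genomic DNA of 64 samples was analysed. The deposited values are raw read counts per insertion, made by the authors from QiSeq reads (75 bp paired-end) with positions on mm10, and were not normalized. The aligner, insertion caller and filters are not given in the sources used here. Of the deposited columns 1 more, a normalized coverage for each sample, stayed unused. The members and gene lists were chosen with earlier results of these data known.

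Positions were moved to the nearest TA (SB) or TTAA (PB) within 5 bp. For the fits an insertion was counted 1 time per sample and motif position, without sex chromosomes and chromosome 14. Insertions per gene of the table's gene column (minimum 10 over the samples of a system) were fitted with edgeR quasi-likelihood tests, separately by system, with Benjamini-Hochberg adjustment, after a check on simulated data. For levels, all lines of the gene column were used. Lines of a sample within 10 bp with equal read numbers were counted 1 time in read shares, a choice made after seeing the data, as were the comparison within the first number of the sample name and the r of all other genes. Rates per motif site use RefSeq borders. Permutation tests used 100000 resamples, or all arrangements where a group had under 10 samples and in the comparisons within the first number of the name. Samples are separate tissue samples, and p-values measure the spread between them.

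Named genes are the 3 members, En1, Foxf1, Pisd and its pseudogenes, the 3 nearest protein-coding genes on each side, the 3 genes of highest r with a member, and the 5 genes per system with the most samples at 1 position. Tiles of 100 bp with at most 20% repeat-masked bases (50% around hit positions) were searched with BLAST+ 2.17.0 in the primary assembly of GRCm38, and matches of at least 95% identity over at least 90 bases were counted. Annotation and sequences are from RefSeq for GRCm38. R 4.3.3, edgeR 4.0.16, DESeq2 1.42.0, Python 3.11.15, numpy 2.4.6, pandas 2.3.3, scipy 1.17.1 and samtools 1.23.1 were used. Alternatives covered scaling, test, filters, read minimum, gene borders, chromosomes and sample name form.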

Additional observations from a re-analysis of the deposited data

Results flagged for a closer look

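At Sfi1, 2 PB tumours and 0 PB tails carried a line with no TTAA within 5 bp, which did not enter the main fit. These lines were looked at again because they lie outside the main measurement and were absent from the control tissue. PB tails held only 17 Sfi1 lines, against 62 in PB tumours. With so few tail lines, their absence there cannot be told apart from the smaller number. They had 10 reads at base 3191540 and 3 reads at base 3186227 of chromosome 11. Over all PB samples 2151 of 237480 lines (0.906%) had no TTAA within 5 bp, against 2.53% of the 79 PB lines at Sfi1. The difference was not tested.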

How the results depend on the processing

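No member passed the tumour against tail test under any of the 14 alternatives of each fit, and the En2 log2 fold change in SB was between 0.31 and 0.94, presence aside. Sfi1 changed sign in SB, to 0.0205 with name form as a covariate, 0.0235 with joined names only and 0.14 with donor and sex chromosomes kept, and in PB to -0.0621 with at least 10 reads and -0.49 when presence was counted. The cause was not tested. Counting presence gave 0.19 for both En2 and Sfi1 in SB, where all 22 samples hold both genes, so this value comes from the library sizes alone and says nothing of either gene. Over all alternatives the adjusted p of Sfi1 ran from 0.781 to 0.996 in SB and from 0.552 to 0.970 in PB.

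Of all genes, 9 passed in SB, against 2 with DESeq2, 27 with donor and sex chromosomes kept and 0 by presence (edgeR, with 8 at an unadjusted p under 0.05). In PB 147 passed, against 86 with DESeq2, 71 with no minimum, 33 with joined names only, 65 with the first number of the name as a covariate (78 with both name forms pooled) and 1 by presence. The PB calls were 71 higher and 76 lower, but 126 and 45 with TMM factors, 66 and 20 with DESeq2. With TMM the median of all genes moved from 0.01 to -0.19 in SB and from 0.20 to 0.40 in PB (log2).

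The lower En2 share of reads in SB tumours held under all 6 alternatives, with adjusted p between 3.0e-05 and 0.0286. Of these, 3 were chosen after seeing the data: summing the reads of all lines (adjusted p = 0.00984), and comparing within the first number of the name with its 2 forms kept apart (adjusted p = 0.0286) or pooled (adjusted p = 0.00441). That number as a covariate of the fits and the fits with positions within 10 bp counted once were also chosen then. The mean number of En2 lines fell from 3.73 to 2.64 in SB tumours and from 3.36 to 2.55 in SB tails when lines on both strands and positions within 10 bp were counted once. Distinct positions alone gave 3.09 and 2.64.

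Relations of Sfi1 with other insertions lost their call with at least 10 reads in PB tumours (r = 0.513), PB tails (r = 0.547) and SB tumours (r = 0.636, and r = 0.700 with donor insertions), without the 2 farthest samples in PB tails (r = 0.487) and SB tails (r = 0.335), within separated names in PB tumours (r = 0.370) and PB tails (r = 0.801), and within joined names in SB tails (r = 0.717). In SB tails it kept its call with at least 10 reads, with r = 0.900 against 0.773 (adjusted p = 0.0286). Spearman's rho of Sfi1 with other insertions lost its call in SB tumours without the 2 farthest samples (0.698) and with at least 10 reads (0.647), and in PB tumours with at least 10 reads (0.275) and within separated names (0.259). With donor insertions it lost its call in SB tumours without the 2 farthest samples (0.795) and with at least 10 reads (0.465). That of En2 with donor insertions in SB tumours gained one with at least 10 reads (0.821). Fewer samples or insertions enter these values. With donor insertions r changed sign for En2 in SB tails (-0.481 without the 2 farthest samples, -0.0803 with at least 10 reads) and for Sfi1 in PB tumours (-0.272 within separated names) and SB tails (-0.00247 without the 2 farthest samples). The cause was not tested. No paired analysis was possible because replicate numbers were given in order of deposit and no full sample name is shared by a tumour and a tail. Names do share stems: the letters and first number gave the comparison above, and the letters and 2 numbers join tumours with tails under 2 stems in SB and 3 in PB with the 2 name forms kept apart, and under 3 in each with the forms pooled. The sources used here do not say what the stems mean. En2 had no value for separated names, since no SB tumour has one.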

Other observations

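Within SB tumours the En2 share of reads was given by organ for 11 tumours. It was 0.117% to 0.202% in 3 spleens, 0.130% and 0.140% in 2 mesenteric lymph nodes, 0.0382% and 0.184% in 2 mesenteric masses, and 0.201% in a small intestine mass. The lowest value, 0.0224%, came from the proximal small intestine and the highest, 0.276%, from a node near the salivary gland, with 0.275% in the thymus. With 1 to 3 tumours per organ, no comparison between organs was made.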
